A study of Mus musculus with 7 samples.

Results

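The genes described here are 8 genes of Schwann cells and their glial precursors, namely Sox10, Erbb3, Foxd3, S100b, Pmp2, Cdh19, Fabp7 and Mbp. They were chosen by symbol, and all 8 were found among the 35976 gene symbols of the table of normalized counts. RNA was sequenced from whole adrenals of the inbred mouse strain C57BL/6J, with no genetic change or treatment named in the labels. There were 7 libraries, each from 1 pool of glands. These came from late gestation (E18.5, 40 glands, sex not determined), from postnatal day 1 (P1; 16 glands of males, 22 of females), from mice of 2 weeks (6 glands of each sex) and from adults of 12 weeks (4 of each sex). The comparisons implied by this design are age and sex. No group had a second pool, so a single value has no replicate error. For age, the male and female pool of each age were the only repeat. Sex was fitted as a term, so the p-values rest on how far the difference between these pools varied across the postnatal ages.

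Schwann cells are the glia of peripheral nerves. They arise from the neural crest through Schwann cell precursors, which travel along nerves into the embryonic adrenal and there also give rise to many of the catecholamine-producing chromaffin cells of the medulla. SOX10 is the transcription factor that defines neural crest and glial fate, and FOXD3 is a transcription factor of the neural crest and of these precursors. ERBB3 is the receptor through which axonal neuregulin keeps precursors alive, and CDH19 is a cadherin of the precursor stage. FABP7 is a fatty acid binding protein of immature and satellite glia, and S100B is a calcium-binding protein of glia that adipocytes also make. MBP and PMP2 (a fatty acid binding protein) are proteins of compact myelin. In whole glands, fewer cells of a type and less RNA per cell cannot be told apart.

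In the GENCODE M21 annotation of GRCm38 (mm10), the build named in the submitters' processing notes, Sox10 lies at chr15:79154908-79165240 (minus strand), Erbb3 at chr10:128567523-128589652 (minus) and Foxd3, a gene of 1 exon, at chr4:99656299-99658622 (plus). S100b lies at chr10:76253853-76261159 (plus), Pmp2 at chr3:10179851-10183929 (minus), Cdh19 at chr1:110888326-110977584 (minus) and Fabp7 at chr10:57784881-57788450 (plus). Mbp has 16 annotated transcripts. Some of these encode golli proteins, which are made outside myelin, and a count per gene does not separate them. S100b overlaps Dip2a on the opposite strand but shares 0 exonic bases with it.

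The promoters of Foxd3, Fabp7 and S100b are shown because these 3 genes fell between 2 and 12 weeks, and RefSeq sequence was held for 3 of the 8 genes. Each is the 250 bases before the RefSeq start on GRCm38.p6, plus strand, 5′ to 3′. Capitals mark the CCAAT box or its reverse complement.
Foxd3, chr4:99656049-99656298: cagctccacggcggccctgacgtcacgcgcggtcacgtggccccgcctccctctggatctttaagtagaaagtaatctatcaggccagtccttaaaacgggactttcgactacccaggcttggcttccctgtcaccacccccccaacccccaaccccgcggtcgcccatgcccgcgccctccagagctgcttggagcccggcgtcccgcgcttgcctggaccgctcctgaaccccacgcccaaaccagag
Fabp7, chr10:57784673-57784922: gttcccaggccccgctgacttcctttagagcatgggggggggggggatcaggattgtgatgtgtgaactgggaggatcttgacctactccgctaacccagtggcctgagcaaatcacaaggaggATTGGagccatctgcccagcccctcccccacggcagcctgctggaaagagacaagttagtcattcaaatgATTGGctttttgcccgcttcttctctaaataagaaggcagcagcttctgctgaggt
S100b, chr10:76253586-76253835: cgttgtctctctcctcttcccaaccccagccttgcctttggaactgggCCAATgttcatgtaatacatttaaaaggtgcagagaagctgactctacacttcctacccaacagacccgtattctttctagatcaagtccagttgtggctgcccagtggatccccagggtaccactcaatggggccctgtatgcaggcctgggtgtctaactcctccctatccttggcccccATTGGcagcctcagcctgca
Searched on both strands, CCAAT matched in Fabp7 at 126 and 56 bases before the start and in S100b at 202 and 20 bases before it. It was found in 33.9% of 32851 promoter windows of this length. The SOX motif forms ACAAAG (16.5% of windows) and ACAATG (10.7%), TATAAA (12.4%), GTGGGAA (5.42%) and ATGCAAAT (1.60%) had no match in these 3 windows. The Foxd3 window was 65.6% G or C with 21 CpG sites, that of Fabp7 54.8% with 4, and that of S100b 53.6% with 2, beside medians of 52.4% and 6 over all windows.

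Reads in genes ranged from 15184210 in the 12-week male library to 23551289 in the P1 male library. All libraries held adrenal markers, with sums of 263560 to 1146300 normalized counts for the cortex list and 43154 to 126860 for the chromaffin list. The library labelled P1 female held Y-linked transcripts (Ddx3y at 604 normalized counts, against 2782 in P1 male). Markers of other tissues were also uneven at P1. Summed skeletal muscle markers were 81018 in P1 male and 144390 in P1 female, and at most 8292 after P1. Summed exocrine pancreas markers were 6104 in P1 male and 96.0 in P1 female, and summed kidney markers were 9291 and 2524. Oligodendrocyte markers were near 0 except Myrf (31.7 to 565 normalized counts). The other 7 reached at most 13.9, and Ermn was at 0 in every library. Of the 7 melanocyte genes, Mlana, Tyr and Slc45a2 were at 0 to 1.64, Dct at 1.68 to 9.79 and Pmel at 8.39 to 30.9. Tyrp1 was at 3.36 to 17.7 up to P1 and at 0 later, and Mitf, which other cells also express, was at 340 to 533. Both cell types share several of the 8 genes with Schwann cells. Summed leukocyte markers lay between 2312 and 7154, and summed cell cycle genes between 18058 and 27633 up to 2 weeks and at 1267 and 1372 in the 12-week pools.

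**Figure D1:**
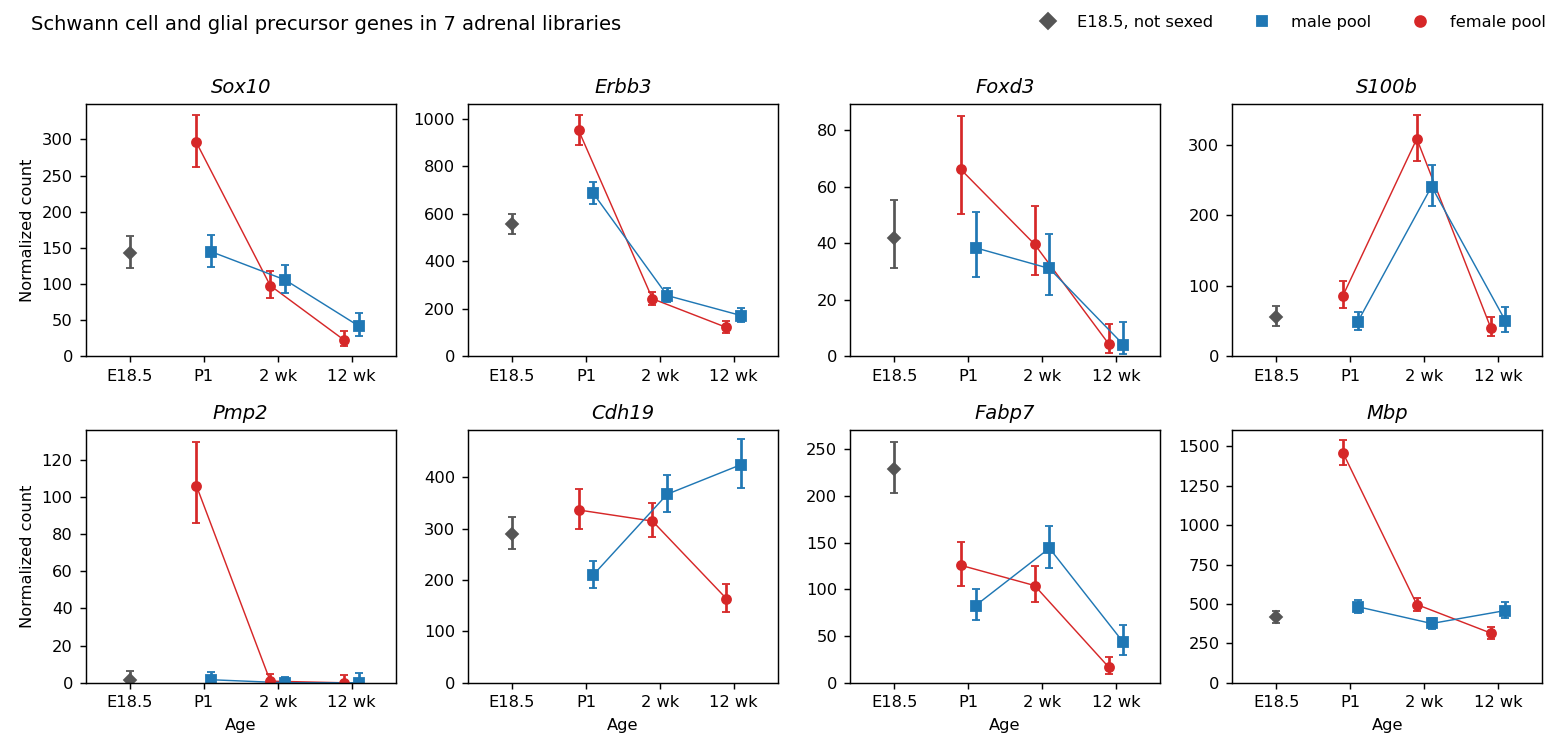
Normalized counts (vertical axes, each starting at 0) of the 8 genes at E18.5, P1, 2 weeks and 12 weeks (horizontal axes), 1 point per pooled library with its sex shown by the symbol, bars for the 95% exact Poisson counting interval, and lines joining pools of the same sex. Sox10 and Erbb3 were lowest at 12 weeks, S100b was highest at 2 weeks, and Pmp2 stood at 106 in P1 female and at most 1.68 elsewhere.

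Between P1 and 12 weeks the transcripts of both transcription factors, of the neuregulin receptor and of Fabp7 fell. Of the 8 genes, 4 fell (Sox10, Erbb3, Foxd3 and Fabp7) and 0 rose in limma with Benjamini-Hochberg adjustment over 16720 genes. Over all genes tested, 23.5% fell and 17.6% rose, so 4 of 8 is to be read against 23.5%. The median change of the 8 genes, later minus earlier, was -2.17 on the log2(normalized count + 1) scale, or -1.87 without Pmp2, against -0.03 over all genes. The P1 and 12-week pools did not overlap, with the later age lower, for 6 of the 8 genes, beside 37.8% of all genes. Markers of neurons fell over the same span. Of 10 general neuron markers 7 fell (median -2.55). The summed level of all 10 was 7953 (male) and 9772 (female) at P1 and 2848 (male) and 4404 (female) at 12 weeks. Mapt, which was not among the 7, made up 3279 of the 12-week female sum. It had 1685.5 normalized counts in P1 female, and it went from 1452 to 1056 in the male pools. Of 8 tested sensory neuron markers 6 fell (median -1.85), with sums of 1375 (male) and 1840 (female) at P1 and 531 (male) and 310.0 (female) at 12 weeks. All 8 cell cycle genes fell as well (median -4.14). The part of these cells in the fall of the 8 genes was not tested.

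Sox10 had 142.8 normalized counts in the embryonic pool, 144.8 (male) and 295.8 (female) at P1, 105.9 (male) and 97.9 (female) at 2 weeks, and 41.9 (male) and 22.6 (female) at 12 weeks. Both 12-week pools were below every other library, and P1 female was above every other. The fall from P1 to 12 weeks was -2.71 ± 0.450 (SE) on the log2 scale, with an adjusted p of 0.00445 in limma. Without the P1 female library it was -1.95 with an adjusted p of 0.0574. The steps to 2 weeks (-1.02, adjusted p 0.174) and from 2 to 12 weeks (-1.69, adjusted p 0.0514) did not pass. In the order of levels, P1 male and E18.5 did not differ beyond counting error (the 95% exact binomial interval of the ratio of their reads included 1), nor did 2-week male and 2-week female. The 12-week values rest on 30 and 20 reads.

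Foxd3 had 42.0 normalized counts in the embryonic pool, 38.5 (male) and 66.2 (female) at P1, 31.1 (male) and 39.7 (female) at 2 weeks, and 4.19 (male) and 4.53 (female) at 12 weeks. The 12-week pools stood apart below the other 5, with 3 and 4 reads. The fall was -3.27 ± 0.421 from P1 to 12 weeks (adjusted p 0.00180) and -2.76 ± 0.421 from 2 to 12 weeks (adjusted p 0.00929), and the first step was -0.51 (adjusted p 0.449). The fall from 2 to 12 weeks did not pass without either 2-week library (adjusted p up to 0.110 over the alternatives). E18.5, 2-week female, P1 male and 2-week male did not differ, each from the next in that order, beyond counting error.

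Erbb3, the receptor, had 555.4 normalized counts in the embryonic pool, 685.7 (male) and 951.5 (female) at P1, 256.2 (male) and 242.6 (female) at 2 weeks, and 172.0 (male) and 122.2 (female) at 12 weeks. Unlike Foxd3, its main step came before 2 weeks. The fall by 2 weeks was -1.69 ± 0.259 on the log2 scale (adjusted p 0.00948), and that by 12 weeks -2.47 ± 0.259 (adjusted p 0.000821). The later step was -0.78 (adjusted p 0.0915). Over the whole span the call held in all 17 alternatives (adjusted p at most 0.0294). The fall by 2 weeks did not pass without any 1 of the 4 libraries compared, with an adjusted p of up to 0.107. Among neighbours in its order of levels, the 2-week pools were the only pair that did not differ beyond counting error.

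**Figure D2:**
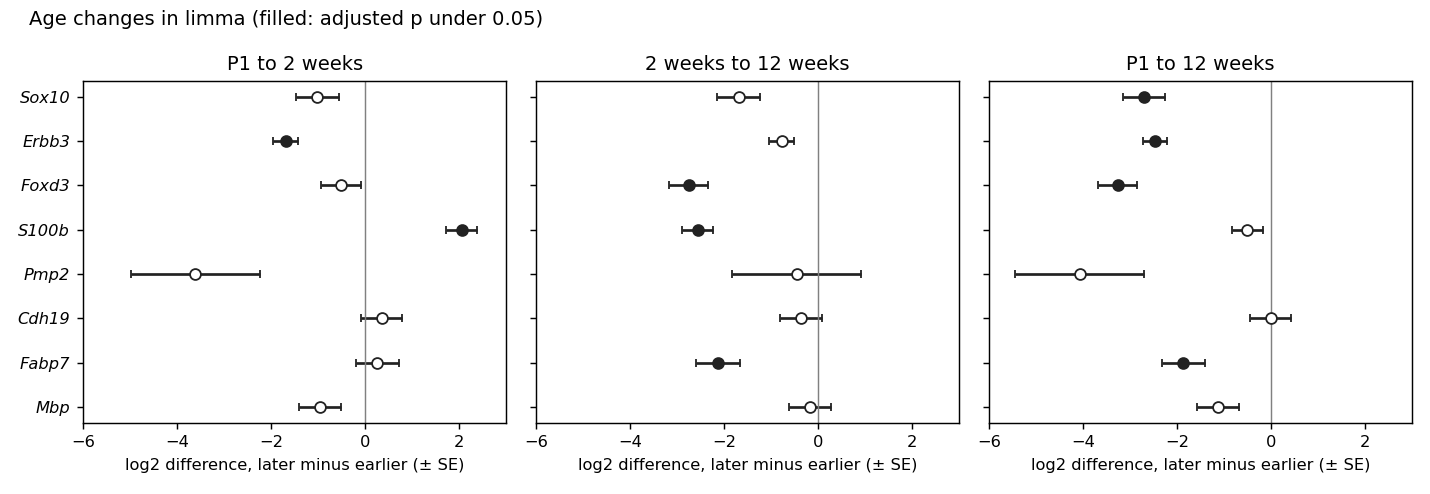
Log2 differences of normalized counts, later minus earlier age (horizontal axes, bars are SE), of the 8 genes for the 3 age comparisons in limma, with filled points for an adjusted p under 0.05. The Erbb3 and S100b points are filled from P1 to 2 weeks, those of Foxd3, S100b and Fabp7 for the later step, and those of Sox10, Erbb3, Foxd3 and Fabp7 over the whole span.

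From P1 to 2 weeks, 1 of the 8 genes rose (S100b; 5.89% of all genes rose) and 1 fell (Erbb3; 10.5% fell). The pools did not overlap and were lower at 2 weeks for 3 of the 8 genes (Sox10, Erbb3 and Pmp2; 34.5% of all genes), and higher for 1 (S100b; 33.4%). Of the 3, Pmp2 was tested only because of P1 female, and it had 2 reads in P1 male and 0 in 2-week male. From 2 to 12 weeks, 0 rose (5.4% of all genes) and 3 fell (Foxd3, S100b and Fabp7; 9.89% of all genes). The 12-week pools lay wholly below the 2-week pools for 5 of the 8 (35.3% of all genes). Over all genes 903 rose and 1654 fell between 2 and 12 weeks, and with libraries scaled to equal totals 647 and 2515, a scaling that moved the median of all genes to -0.20. Without either 12-week library 5 of the 8 genes passed in the first step (Sox10, Pmp2 and Mbp in addition), and without 12-week male 7 passed in the second (all but Pmp2).

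Fabp7 had 229.4 normalized counts in the embryonic pool, 82.6 (male) and 125.8 (female) at P1, 144.1 (male) and 104.1 (female) at 2 weeks, and 43.3 (male) and 17.0 (female) at 12 weeks. E18.5 was the highest library, the P1 and 2-week pools overlapped, and both 12-week pools were lower. It fell by 2.13 ± 0.462 on the log2 scale from 2 to 12 weeks (adjusted p 0.0283), and the fall over the whole span from P1 was -1.87 ± 0.462 (adjusted p 0.0192). The change from P1 to 2 weeks was 0.26 (adjusted p 0.738). Without P1 female the fall from P1 to 12 weeks was -1.13 with an adjusted p of 0.166, and the fall from 2 to 12 weeks did not pass without P1 male, P1 female or either 2-week library (adjusted p up to 0.217).

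S100b had 56.3 normalized counts in the embryonic pool, 49.1 (male) and 86.1 (female) at P1, 241.1 (male) and 308.8 (female) at 2 weeks, and 50.3 (male) and 40.7 (female) at 12 weeks. Both 2-week pools were above every other library, while the 12-week pools were near the E18.5 level. It rose by 2.05 ± 0.330 on the log2 scale from P1 to 2 weeks (adjusted p 0.0111) and fell by 2.56 ± 0.330 from 2 to 12 weeks (adjusted p 0.00545). The difference from P1 to 12 weeks was -0.51 (adjusted p 0.251). The rise did not pass without any 1 of the 4 libraries compared (adjusted p up to 0.132), and the fall did not pass without either 2-week library (adjusted p up to 0.0761). Adipocyte markers were also higher at 2 weeks than at P1. Of 9 such markers 8 rose, and their summed level went from 595 (male) and 1080 (female) to 36160 (male) and 39328 (female). At 12 weeks that sum was 28234 and 24253. From 2 to 12 weeks 3 of the 9 fell (Plin1, Ucp1 and Cidea) and 2 rose (Retn and Adrb3). Adipoq, Cfd, Retn, Lep and Adrb3 were higher in both 12-week pools than in either 2-week pool, unlike S100b. Cfd went from 5783 (male) and 5638 (female) at 2 weeks to 11416 (male) and 13114 (female) at 12 weeks. The largest part of both 2-week sums was Ucp1. Ucp1, the uncoupling protein gene of brown fat, had 3.27 and 24.3 normalized counts in the P1 pools, 19373 and 21706 in the 2-week pools and 2705 and 2197 in the 12-week pools, so it was highest at the same age as S100b. The part of adipocytes in the S100b level was not tested. Dip2a, which overlaps S100b, had 1086 normalized counts in the embryonic pool, 766.7 (male) and 708.7 (female) at P1, 1067 (male) and 1023 (female) at 2 weeks, and 474.0 (male) and 483.1 (female) at 12 weeks. It was thus also higher at 2 weeks than at P1 or 12 weeks, and its part in the S100b level was not tested.

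Cdh19 had 290.7 normalized counts in the embryonic pool, 210.3 (male) and 336.7 (female) at P1, 367.4 (male) and 315.0 (female) at 2 weeks, and 425.0 (male) and 164.0 (female) at 12 weeks. The 12-week male pool was the highest of the 7 libraries and the 12-week female pool the lowest. The change from P1 to 12 weeks was -0.01 ± 0.439 (adjusted p 0.987), and neither shorter step passed. The 5 highest libraries in its order did not differ, each from the next, beyond counting error.

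Mbp had 418.4 normalized counts in the embryonic pool, 482.8 (male) and 1460 (female) at P1, 376.3 (male) and 496.7 (female) at 2 weeks, and 458.6 (male) and 315.7 (female) at 12 weeks. P1 female was 2.94-fold above the next library, and the other 6 lay between 315.7 and 496.7. No age step passed, with changes of -0.96 (adjusted p 0.194), -0.18 (0.813) and, from P1 to 12 weeks, -1.14 (0.0824) in limma. The last rested on single libraries. It was -0.31 without P1 female (adjusted p 0.578), -1.97 without P1 male (0.0385) and -1.91 without 12-week male (0.000172).

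Pmp2 had 2 reads at E18.5 (1.68 normalized counts), 96 in the P1 female pool (106.0) but 2 in the male pool of that age (1.64), 1 at 2 weeks in the female pool (0.882) and 0 in 2-week male and both 12-week libraries. It was nearly all in P1 female. Without that library its mean was 0.700, under the minimum of 10, so it was tested only because of P1 female. Against a floor of 3 reads per library, P1 female was at least 39.7-fold above 2-week male, at least 25.3-fold above 12-week male and at least 31.2-fold above 12-week female. Its change from P1 to 12 weeks did not pass in limma (adjusted p 0.0532). It passed in edgeR's quasi-likelihood test on recovered reads (adjusted p 0.00281), and in DESeq2 it did not (0.190). Over the alternatives the adjusted p ran from 0.00281 to 0.204. A fitted fold change for this gene depends on the pseudocount and is no bound.

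Divided by exonic length, the order of levels also moved with age. At E18.5 Fabp7 was highest, at 184 normalized counts per kilobase, followed by Erbb3 at 92.3 and Cdh19 at 67.9. In P1 female Mbp (172) and Erbb3 (158) led. In both 2-week libraries S100b led, at 162 in the male and 208 in the female. In the 12-week male library Cdh19 led at 99.3, and Mbp followed at 54.1. Exonic length is the union over annotated transcripts, which lowers the value of a gene with many transcripts such as Mbp.

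From E18.5 to P1 the question is how the lineage's transcripts stood around birth, and here single libraries were compared without a test. Against P1 male, 1 of the 8 genes (Fabp7) was at least 2-fold lower (3.5% of all genes) and 0 were at least 2-fold higher (4.9%). Fabp7 was 2.78-fold higher at E18.5 than in P1 male (95% exact binomial counting interval 2.20 to 3.52). Against P1 female, 3 of the 8 were at least 2-fold higher at P1 (7.04% of all genes) and 0 were at least 2-fold lower (6.12%). Without Pmp2, which passed the minimum only through P1 female, it was 2 of 7, beside 6.74% of the genes that pass without that library. Sox10 was 2.07-fold higher in P1 female (1.70 to 2.52), Mbp 3.49-fold (3.15 to 3.88) and Pmp2 63.1-fold (17.0 to 528). Sox10 in P1 male was within counting error of E18.5, at 1.01-fold (0.817 to 1.26). Fabp7 was also lower in P1 female, with E18.5 1.82-fold above it (1.46 to 2.29).

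Sex was then compared at each age between single pools, with no test. At P1 all 8 genes were lower in the male library, each beyond counting error, and 3 were at least 2-fold lower (3.03% of all genes). The share of all genes that were lower beyond counting error was not counted, so 8 of 8 has no background beside it. The median log2 difference, male minus female, was -0.78, or -0.77 without Pmp2, against -0.02 over all genes. Pmp2 passed the minimum only through P1 female. With the minimum set on the other 6 libraries, 2 of 7 (Sox10 and Mbp) were at least 2-fold lower, beside 2.82% of all genes. P1 female was 2.04-fold above P1 male for Sox10 (1.68 to 2.48), 3.02-fold for Mbp (2.74 to 3.34) and 64.8-fold for Pmp2 (17.4 to 542). The ratios of the other 5 ran from 1.39 for Erbb3 to 1.75 for S100b. The library labelled P1 female was the highest of all 7 libraries for 5 of the 8 genes, beside 19.8% of all genes, or for 4 of 7 without Pmp2, beside 19.4% of the genes that pass without P1 female.

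At P1 the other genes of myelinating Schwann cells moved with Mbp and Pmp2. Of 14 tested, 8 were at least 2-fold higher in P1 female and 13 lay above P1 male, with a median of -1.20 (log2, male minus female), against -0.02 over all genes. With Ncmap left out, which passed the minimum only through P1 female, 7 of 13 were at least 2-fold higher there, beside 2.82% of all genes. Prx, the gene for periaxin, had 141 normalized counts in the male and 632 in the female library. The summed level of the 15 myelin genes was 3722 in P1 male, 10071 in P1 female and 2465 to 3472 in the other 5 libraries. Of the 9 tested precursor genes 0 were at least 2-fold lower in P1 male, but 7 lay below P1 female and the median was -0.48. Of the 7 non-myelinating glial genes 0 were at least 2-fold lower and 5 lay below, with a median of -0.42. Whether these lists differ from the myelin list was not tested.

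Markers of other cells also differed between these P1 libraries. At least 2-fold higher in P1 female were 4 of 8 tested sensory neuron markers, beside 3.03% of all genes. Scn10a, Scn11a and Pou4f1 passed the minimum only through P1 female, and without them the count was 2 of 5 (P2rx3 and Avil), beside 2.82%. The sodium channel gene Scn10a had 4.91 normalized counts in the male and 147 in the female library, and at most 15.1 elsewhere. Of 10 general neuron markers 0 were at least 2-fold apart, but 9 lay below P1 female in P1 male, with a median of -0.35. Summed chromaffin markers were 49225 in P1 male and 95443 in P1 female, summed adrenal cortex markers 437360 and 263560, and summed adipocyte markers 595 and 1080. Single genes weigh heavily in these sums. Of 12 chromaffin markers 3 (Chga, Chgb and Hand2) were at least 2-fold higher in P1 female, with a median of -0.44 (log2, male minus female). Th was lower there, at 6180 against 6647 in P1 male. Of 9 adipocyte markers 6 were at least 2-fold higher in P1 female, with a median of -2.56. The part of these tissues in the P1 difference of the 8 genes was not tested.

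**Figure D3:**
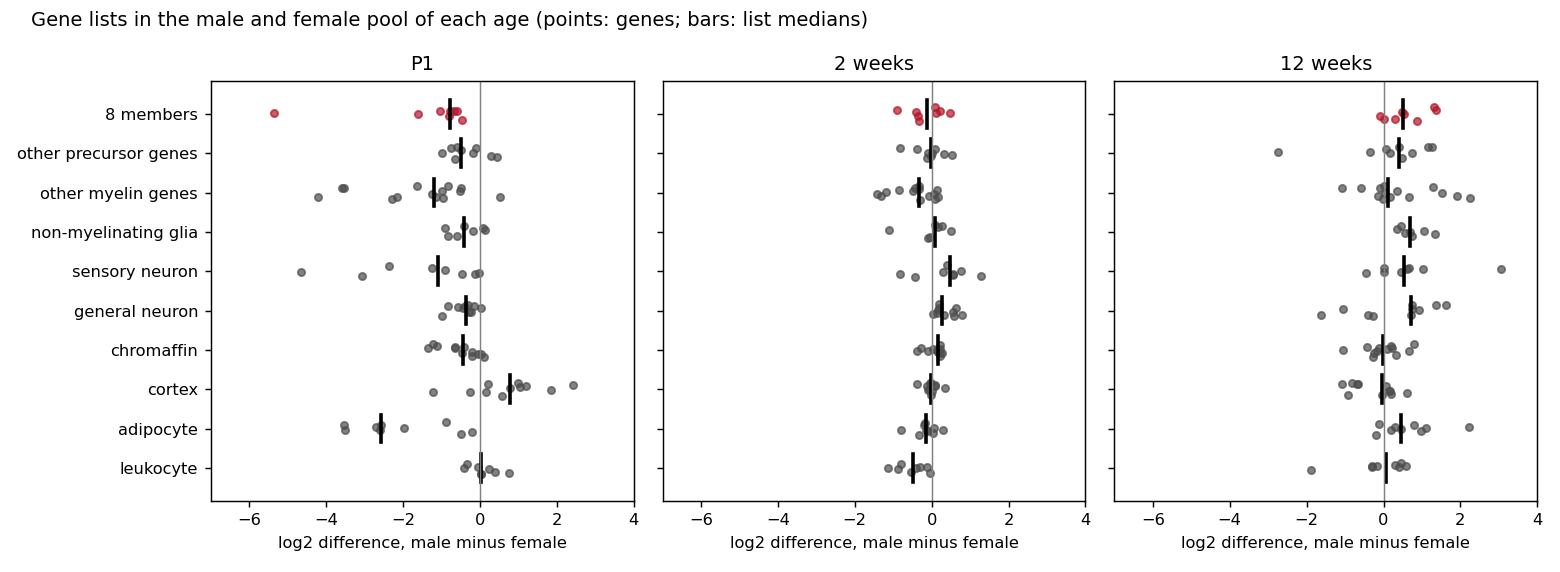
Log2 differences, male minus female (horizontal axes), of the genes of each list at P1, 2 weeks and 12 weeks, where points are genes and bars are list medians. At P1 the myelin list had its median at -1.20 and the 8 genes theirs at -0.78.

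At 2 weeks 0 of the 8 genes were at least 2-fold apart (4.24% of all genes), and 4 were higher and 4 lower in the male library. Mbp (1.32-fold) and S100b (1.28-fold) were higher in the female, and Fabp7 (1.38-fold) and Cdh19 (1.17-fold) in the male, each beyond counting error. Sox10 was 1.08-fold higher in the male library, with an interval of 0.828 to 1.41 that includes 1. At 12 weeks 6 of the 8 were higher in the male library, 1 was lower and Pmp2 had 0 reads in both. The difference exceeded counting error for 5 of the 8, and not for Foxd3 or S100b. The share of all genes higher in the male library was not counted. The median log2 difference of the 8 was 0.51, against 0.02 over all genes. Cdh19 (2.59-fold, 2.12 to 3.18) and Fabp7 (2.55-fold, 1.34 to 5.09) passed 2-fold toward the male, beside 4.84% of all genes. Sox10 was 1.85-fold higher (1.02 to 3.44), on 30 and 20 reads.

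Over the 3 ages together, limma with age as a block called 0 of the 8 genes by sex (adjusted p 0.999 for each), and 0 had an unadjusted p under 0.05. Over all genes 1 passed, or 0.00598%. Tests on recovered reads called 0 of the 8 in edgeR and 0 in DESeq2, and over all genes 0 and 9. Foxd3 was lower in the male library at 3 of 3 ages, as were 10.9% of all genes, and no other member kept 1 direction at all ages.

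**Figure D4:**
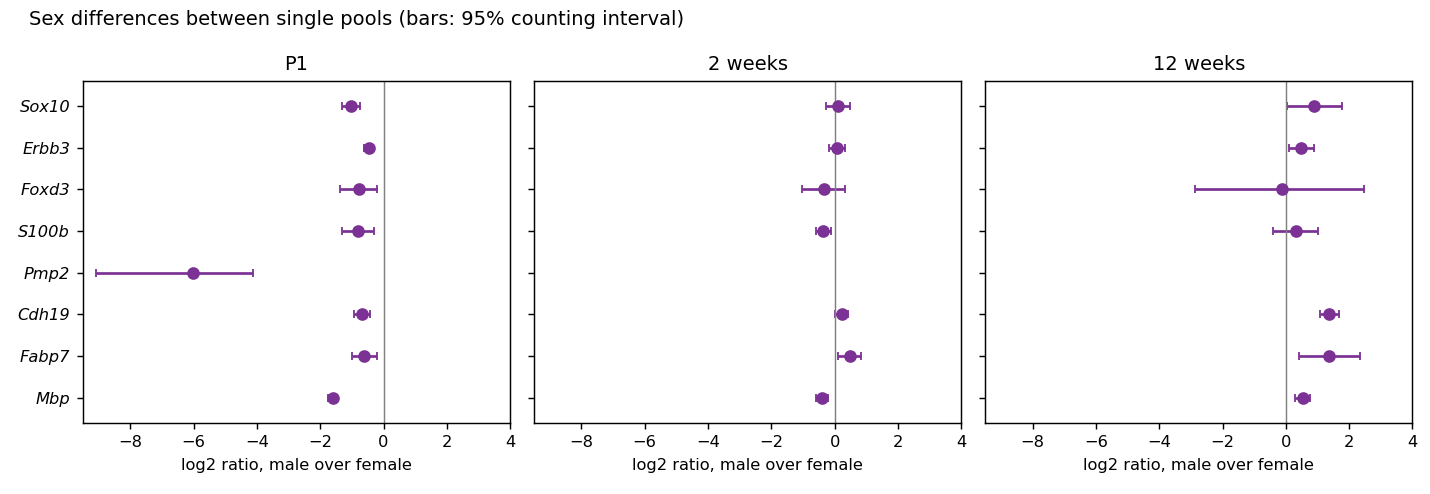
Log2 ratios, male over female (horizontal axes), of the 8 genes between the single pools of each age, with bars for 95% counting intervals. At P1 8 of 8 points lie below 0, against 3 at 2 weeks and 1 for the oldest mice, and Pmp2 is not drawn at the later ages, where it had 0 or 1 read.

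Set against Sox10 in the same library, Cdh19, Mbp and S100b did not fall in proportion from P1 to 12 weeks. For Erbb3 and Foxd3 the counting intervals of these ratios at P1 and at 12 weeks overlapped. A ratio of reads within 1 library does not depend on its depth or scaling. Cdh19 had 2.04 reads per Sox10 read in the embryonic pool, 1.45 (male) and 1.14 (female) at P1, 3.47 (male) and 3.22 (female) at 2 weeks, and 10.1 (male) and 7.25 (female) at 12 weeks. Both 12-week intervals (6.95 to 15.3 and 4.53 to 12.2) lay above those of every earlier library. Mbp went from 2.93 at E18.5 to 10.9 and 13.9 at 12 weeks, and its 12-week intervals also lay above all earlier ones. S100b was at 0.291 to 0.394 up to P1, at 2.28 and 3.15 at 2 weeks, and at 1.2 and 1.8 at 12 weeks. Erbb3 was at 3.22 to 4.73 up to P1, lower at 2 weeks (2.42, 1.95 to 3.02, and 2.48, 1.98 to 3.12, both below the intervals of E18.5 and P1 male) and at 4.10 and 5.40 at 12 weeks, where the intervals (2.73 to 6.33 and 3.33 to 9.19) overlapped those of E18.5 and P1. Foxd3 was at 0.224 to 0.294 up to P1, 0.294 and 0.405 at 2 weeks and 0.10 and 0.20 at 12 weeks, on 3 and 4 reads, with intervals of 0.0195 to 0.322 and 0.0497 to 0.597. Fabp7 was at 1.61 at E18.5 and at 0.571 and 0.425 at P1, and at 0.75 to 1.36 later. Its 12-week intervals (0.605 to 1.77 in the male and 0.357 to 1.54 in the female library) overlapped that of P1 male (0.442 to 0.733). The 12-week male interval lay above that of P1 female (0.339 to 0.532).

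**Figure D5:**
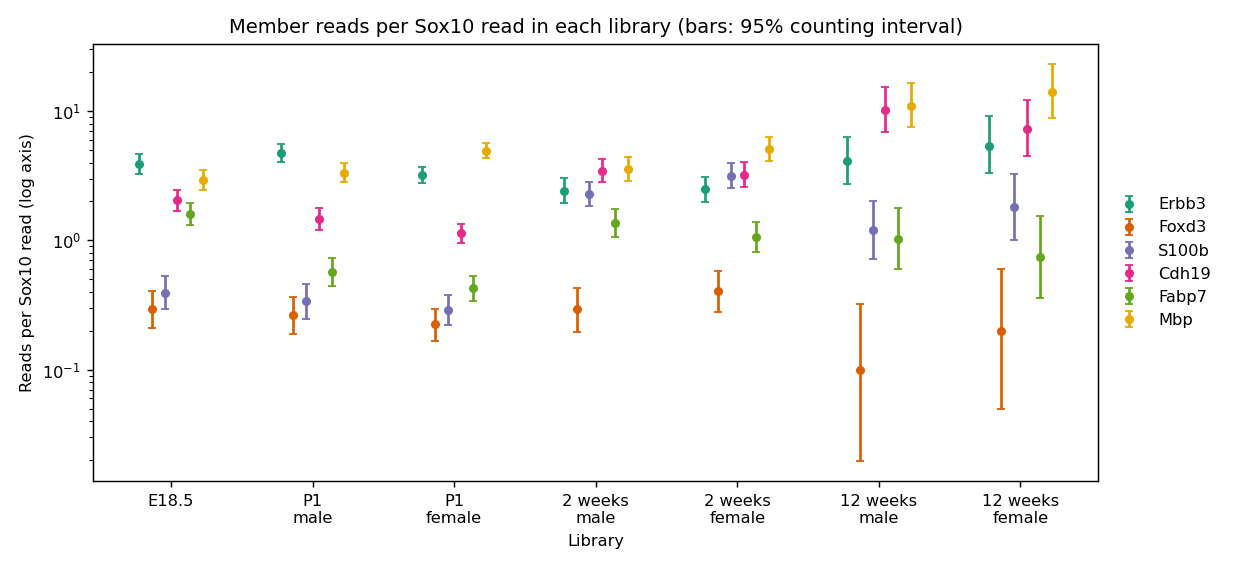
Reads of each gene per Sox10 read (vertical axis, log scale) in the 7 libraries (horizontal axis), with bars for 95% counting intervals. Cdh19 lies at 1.14 to 2.04 up to P1 and at 10.1 and 7.25 at 12 weeks, while Erbb3 lies between 2.42 and 5.40.

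Other genes of the lineage were read from lists. Of 12 further precursor genes 9 were tested, and 9 of 9 fell from P1 to 12 weeks (median -1.55), beside 23.5% of all genes. Without P1 female 1 of 9 passed (median -1.16), and without P1 male 3 of 9. Ngfr, the low-affinity neurotrophin receptor gene, fell by 2.01 on the log2 scale (adjusted p 0.00801). Sox2, a progenitor transcription factor gene, had a fitted change of -2.72 (adjusted p 0.0330), with 15.5 and 16.6 normalized counts in the P1 pools and 0 and 5 reads in the 12-week pools, so the size depends on the pseudocount and is no bound. Ednrb, an endothelin receptor gene, had the smallest fall of the list (-0.79, adjusted p 0.0160). In each shorter step 2 of 9 fell, Sox9 and Itga4 in the first and Ngfr among those in the second, and at most 1 of 9 without any single P1 or 2-week library.

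Of the 14 tested myelin genes 7 fell from P1 to 12 weeks and 0 rose (median -1.57), beside 23.5% of all genes that fell. Without P1 female 4 of 14 fell (median -0.52), and without 12-week male 11. Gjb1, the gene for connexin 32, fell most (-7.85, adjusted p 0.000558), from 374 and 535 normalized counts at P1 to 2.80 and 0 at 12 weeks. Gjb1 is also made by liver and kidney cells. Cnp, a myelin enzyme gene that other cells also express, had a difference of 0.11 (adjusted p 0.729) and Gldn, the gene for gliomedin, of 0.02 (adjusted p 0.963). Of the 7 non-myelinating glial genes 4 fell and 1 rose. Scn7a, a sodium channel gene, rose by 1.24 (adjusted p 0.0252; it did not pass without P1 male, either 2-week library or 12-week male), and Ncam1, an adhesion molecule that chromaffin cells also carry, had a fall of -1.8 (adjusted p 0.000756).

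In the neuregulin and ErbB pathway, which Erbb3 belongs to, the receptor genes Erbb2, Erbb4 and Egfr fell from P1 to 12 weeks. ERBB3 signals with ERBB2 as its partner, because its own kinase is weak. From P1 to 12 weeks 5 of 14 tested genes fell (Erbb2, Erbb4, Egfr, Btc and Lrig1), beside 23.5% of all genes, and 1 rose, beside 17.6% (median -0.38). Without P1 male 3 fell. Erbb2 had 391 normalized counts at E18.5, 704 and 545 at P1, 219 and 215 at 2 weeks and 152 and 154 at 12 weeks, a fall of -2.01 from P1 (adjusted p 0.000689). Erbb4, another neuregulin receptor gene, fell most (-4.20, adjusted p 0.0115), and its P1 levels were 530 in the male and 173 in the female library. At E18.5 it had 98.3 normalized counts, below both P1 pools. Its 12-week levels were 5.59 in the male library, on 4 reads, and 40.7 in the female library, on 36 reads. The gene that rose was Nrg4, a neuregulin made by brown fat that binds ERBB4 and not ERBB3, by 3.5 (adjusted p 0.000219). Nrg1, the main neuregulin of axons, had 297 at E18.5 and 121 to 199 later, with a difference of -0.33 from P1 to 12 weeks (adjusted p 0.345).

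Among other fatty acid binding protein genes, the family of Fabp7 and Pmp2, 4 of 8 were tested. From P1 to 12 weeks Fabp1, Fabp3 and Fabp5 fell and Fabp4, the adipocyte member, rose by 1.72 (adjusted p 0.00224; it did not pass without either P1 library). Fabp1, the liver member, fell most (-9.02, adjusted p 0.000711), with 3 reads and 0 reads in the 12-week libraries.

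Over the 7 libraries, 16719 other genes were ordered by their Pearson correlation with Sox10 on the log2(normalized count + 1) scale, as a description. The 10 nearest were Tfap2b (r = 0.996), Slc17a2, Pitpnc1, Ctnnd2, Ttc9, Egfl8, Fam102a, Amdhd1, Marco and Eif3a (r = 0.986). The 7 points share ages and pools, and without P1 female 1 of these 10 was still among the nearest 10, without E18.5 2 of them. Among the other members Foxd3 had r = 0.941 (rank 498) and Erbb3 r = 0.934 (rank 627), and the levels of Erbb3 and Sox10 had the same order over the 7 libraries. Fabp7 had r = 0.844, Pmp2 0.741 and Mbp 0.721, while Cdh19 (0.331) and S100b (0.294) were far from the Sox10 pattern. Mbp and Pmp2 had r = 0.962 with each other, and both were highest in P1 female. Pmp2 had 96 reads there and 0 to 2 in the other libraries, so this r rests on that 1 library.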

How the data were processed

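RNA from 7 pools of mouse adrenal glands was sequenced, all in the same run and lane per the labels. CASAVA 1.8.2, HISAT2 2.1.0, HTSeq 0.9.1, DESeq2 2.11.40.6 and the build mm10 are named in the submitters' processing notes, and the annotation and the use of strand are not given in the sources used here. The authors deposited normalized counts, a signal on a linear scale. Every value in a library was a whole number of reads divided by 1 size factor (100% whole within 0.01 reads), so whole reads were recovered. No molecular identifiers are named in the labels, and reads may not be independent molecules, so intervals cover counting error only, and values of 20 to 30 reads are imprecise.

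The 16720 genes (of 35976) whose mean normalized count over all 7 libraries was 10 or more were tested with limma 3.58.1 in R 4.3.3 on log2(normalized count + 1), which understates changes of low genes. The 6 postnatal libraries were fitted with age and sex as terms, leaving 2 residual degrees of freedom. Tests were two-sided, and an adjusted p (Benjamini-Hochberg) under 0.05 was called. Single libraries were compared by their ratio of scaled reads with a 95% exact binomial interval, and at least 2-fold means a log2 difference of 1 or more. Alternatives were other pseudocounts, filters and scalings, edgeR 4.0.16 and DESeq2 1.42.0 on recovered reads, no block, and leaving out each library. A minimum set on the 6 libraries other than P1 female was chosen after the values were seen. Scripts were checked on simulated data.

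The 8 genes and the 18 lists were chosen with earlier results of these data known. All 8 genes are described. Of each list, counts are given, and the genes named are those with the largest or smallest change, those against the direction of the rest, and those at or near 0, with the 10 genes most like Sox10. Other list genes (such as Ngfr, Prx, Erbb2, Nrg1, Ncam1 and Scn10a) were named after their values were seen. Of 178 list genes 177 matched by symbol and 1 by an older symbol. Some genes of the lists are not reported here by name.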

Additional observations from a re-analysis of the deposited data

Results flagged for a closer look

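Differences between the male and the female pool that each exceeded counting error had opposite directions at different ages for 5 of the 8 genes. The share of all genes with such a change was not counted, so 5 of 8 cannot be read as particular to these genes. S100b also changed direction, from -0.80 at P1 and -0.36 at 2 weeks to 0.30 at 12 weeks, but the last was within counting error. These are differences between single pools, and whether they differ between ages was not tested. As log2 differences, male minus female, Sox10 was at -1.03 at P1 and 0.86 at 12 weeks, and Erbb3 at -0.47 and 0.49. In the order P1, 2 weeks and 12 weeks, Cdh19 was at -0.68, 0.22 and 1.37, Fabp7 at -0.60, 0.47 and 1.30, and Mbp at -1.59, -0.40 and 0.54.

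The age change had opposite directions in the sexes, each beyond counting error, for Cdh19 and Mbp, again untested. Cdh19 from P1 to 12 weeks was at 1.01 in the male libraries and -1.03 in the female libraries. Mbp from 2 to 12 weeks was at 0.28 in the male libraries and -0.65 in the female libraries. Other sign changes between postnatal ages had at least 1 sex within counting error. In the order male and female these were Fabp7 (0.79 and -0.27) and Cdh19 (0.80 and -0.10) from P1 to 2 weeks, Cdh19 from 2 to 12 weeks (0.21 and -0.94) and S100b from P1 to 12 weeks (0.04 and -1.06). The P1 values come from the library labelled P1 female, which held Y-linked transcripts.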

How the results depend on the processing

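No called value of the 8 genes changed direction under any alternative. Of the values of single genes, 674 stayed on their side of the threshold, 22 newly passed, 26 no longer passed and 2 (both of Pmp2) moved. The count of the 8 genes that passed from P1 to 2 weeks was 2, and 0 without a filter on low genes. Leaving out 1 library gave 0 (any P1 or 2-week library) to 5 (either 12-week library). From 2 to 12 weeks it was 3, with 0 without the filter and 5 with equal totals, and leaving out 1 library gave 0 (either 2-week library) to 7 (12-week male). From P1 to 12 weeks it was 4, with 2 without the filter, and leaving out 1 library gave 2 (P1 female) to 6 (P1 male or 12-week male). With a pseudocount of 0.1, 1 gene (Pmp2, 1 read against 0) was at least 2-fold apart at 2 weeks. Of the 10 genes nearest to Sox10, 1 was shared without P1 female and 2 without E18.5. No paired analysis was possible because each group is 1 pool, and the labels give no replicate numbers. Sex served as the block, and the fit without a block is among the alternatives. The depth limits Foxd3 and Sox10 at 12 weeks (3 to 30 reads) and Pmp2 outside P1 female (0 to 2 reads). Where a call was lost when a library was left out, fewer samples entered the fit, and the lone pool of that age was assumed to vary like the others.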
